A study of Mus musculus with 12 samples.

Results

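The lecticans, tenascins and their matrix partners were followed in the newborn mouse forebrain through 10 genes, chosen by symbol from the 55335 genes listed in the files. They are the tenascins Tnc and Tnr, the lecticans Bcan, Ncan, Vcan and Acan, the link proteins Hapln1 and Hapln4, and 2 chondroitin sulfate carriers of the cell membrane, Ptprz1 and Cspg5. Single nuclei of the forebrain had been sequenced at postnatal day 1 (P1) from 12 mice of the MYT1L S710fsX strain, whose mutant allele is a frameshift in Myt1l on a C57BL/6 background. The groups were 8 wild-type animals (WT, 5 male and 3 female) and 4 heterozygous animals (Het, 3 male and 1 female), with no treatment. A library here means the nuclei of 1 animal, told apart by barcode after pooled processing. Libraries are numbered within a genotype, and WT 6, WT 7, WT 8 and Het 4 are the female ones. The allele is carried in all cells from conception, the animals came from a small number of litters, and the labels do not give the litter of a library, so litter and genotype cannot be told apart. The labels name the forebrain, while the study's methods in 1 place name prefrontal cortex. WT 4 had the lowest share of nuclei in the D2 striatal-like class, 0.256%. The mean share was 2.88% ± 1.33 (SD) in WT and 4.43% ± 1.15 in Het, with Het libraries from 3.46% to 6.08%.

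Lecticans are secreted core proteins that carry chondroitin sulfate chains. One end of the molecule binds hyaluronan, an unsulfated sugar polymer spun out at the cell surface, link proteins clamp that bond, and the other end binds tenascins, which are multi-armed glycoproteins able to tie several lecticans together. In young brain this meshwork is loose and rich in neurocan, versican and tenascin-C, and it borders migrating cells and growing axons. In mature brain it condenses around some neurons as perineuronal nets, in which aggrecan, Hapln1, Hapln4 and tenascin-R are prominent.

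Nuclei were placed in classes by clustering without the 10 genes or their pathway partners. A cluster received a class name, ending in "-like", only from marker genes outside both of these sets. Some of those markers, such as the collagen genes of the fibroblast list, are matrix genes too. Of 94676 kept nuclei, with a median of 1895 unique molecular identifiers (UMIs, tags that mark captured RNA molecules), 7086 were astroglia-like, 3557 oligodendrocyte lineage-like and 2740 cycling progenitor-like. Neurons included 16793 upper-layer and 7338 deep-layer excitatory (ExN-like) nuclei, inhibitory (InhN-like) classes of the medial and caudal ganglionic eminences (MGE and CGE), and D1 and D2 striatal-like nuclei. Clusters without a name held 31.7% of nuclei. The deep-layer class, called the deep layer below, was cluster 0 alone. Cluster 22, which matched deep-layer ExN best, and cluster 25, which matched it second best, stayed unnamed, so deep-layer values do not cover all deep-layer neurons. Clusters 3, 4 and 23, of 4927, 4803 and 1225 nuclei, matched upper-layer ExN best and stayed unnamed as well. Upper-layer values and shares of upper-layer nuclei thus need not cover all upper-layer neurons. Levels are CPM, the UMIs of a gene scaled to a common total of UMIs of a class within a library, given as mean ± SD over libraries. Differences between classes are a description without a test, because classes and levels come from the same nuclei. The astroglia-like class carried its markers clearly, with a summed level of 12 astroglia markers from 6943 to 11199 CPM in WT libraries against 60.0 to 212 CPM in upper-layer nuclei. All 8 oligodendrocyte lineage markers were found in the lineage-like class, with a sum from 8925 to 11295 CPM. The microglia-like class was led by Mrc1, F13a1 and Stab1, which mark macrophages as well. Total UMIs of a library ranged from 15439429 to 40784144. No less than by design, 0 barcodes were shared between libraries, since each animal had its own first-round barcodes.

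Promoters of 5 of the 10 genes are shown because these genes divide into those led by astroglia-like nuclei (Tnc, Ptprz1, Bcan and Ncan) and Tnr, led by the oligodendrocyte lineage. Each run covers 250 bases before and 50 bases after the annotated start (RefSeq, GRCm38.p6, which has the coordinates of mm10), read on the gene's own strand. Capitals mark AAGTT or AACTT, the core bound by the MYT1 family, and TTGGC or GCCAA, a half-site of nuclear factor I, both searched on both strands. The coordinates are chr4:64046887-64047186 (minus strand) for Tnc, chr6:22875252-22875551 (plus) for Ptprz1, chr3:88000307-88000606 (minus) for Bcan, chr8:70120795-70121094 (minus) for Ncan and chr1:159523519-159523818 (plus) for Tnr.
Tnc: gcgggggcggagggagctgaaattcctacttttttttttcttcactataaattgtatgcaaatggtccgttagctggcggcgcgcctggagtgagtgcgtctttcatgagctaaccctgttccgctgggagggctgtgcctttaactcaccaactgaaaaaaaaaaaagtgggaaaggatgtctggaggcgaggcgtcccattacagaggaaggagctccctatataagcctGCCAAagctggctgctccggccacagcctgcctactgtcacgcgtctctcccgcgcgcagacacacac
Ptprz1: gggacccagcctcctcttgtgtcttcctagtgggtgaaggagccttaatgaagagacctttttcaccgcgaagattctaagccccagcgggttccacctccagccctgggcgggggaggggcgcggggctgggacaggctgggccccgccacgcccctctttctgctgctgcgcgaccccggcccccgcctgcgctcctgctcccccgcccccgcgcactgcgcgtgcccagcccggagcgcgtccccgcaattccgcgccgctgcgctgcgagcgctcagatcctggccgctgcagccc
Bcan: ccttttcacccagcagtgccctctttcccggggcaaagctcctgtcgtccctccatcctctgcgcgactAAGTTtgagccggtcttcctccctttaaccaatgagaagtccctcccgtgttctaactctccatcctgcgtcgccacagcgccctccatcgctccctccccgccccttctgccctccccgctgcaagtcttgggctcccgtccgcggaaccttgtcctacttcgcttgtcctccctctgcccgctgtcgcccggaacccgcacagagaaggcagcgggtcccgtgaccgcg
Ncan: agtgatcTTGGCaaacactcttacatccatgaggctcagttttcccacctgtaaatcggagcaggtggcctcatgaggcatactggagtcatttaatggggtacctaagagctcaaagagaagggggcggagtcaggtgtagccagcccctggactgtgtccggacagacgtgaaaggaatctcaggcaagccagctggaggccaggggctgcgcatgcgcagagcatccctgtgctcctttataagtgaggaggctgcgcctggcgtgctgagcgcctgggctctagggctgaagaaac
Tnr: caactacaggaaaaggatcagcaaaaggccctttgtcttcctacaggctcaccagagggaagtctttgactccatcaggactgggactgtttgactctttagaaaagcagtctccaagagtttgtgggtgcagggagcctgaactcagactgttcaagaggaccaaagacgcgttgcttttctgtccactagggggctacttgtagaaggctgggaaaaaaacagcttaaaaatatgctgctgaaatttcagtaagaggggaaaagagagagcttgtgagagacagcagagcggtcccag

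Of the 10 genes, 8 matched this table, with 9 promoters in all since Tnc has 2 starts. The MYT1 core occurred in 2 of the 9, those of Bcan and Hapln1, and in 39.3% of 32851 promoters of the same length. The nuclear factor I half-site occurred in 3 of the 9, those of Acan, Ncan and 1 start of Tnc, against 46.7% of all. The promoters of Ptprz1 and Tnr held neither, and they differ in makeup, with a GC content of 71.7% and 29 CpG steps in Ptprz1 and 48.0% and 3 in Tnr.

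The genes lie far apart with 2 exceptions, in which a lectican and a link protein are neighbours. In GENCODE M21 (mm10) Ncan (ENSMUSG00000002341.8, chr8:70093085-70120873, minus strand) and Hapln4 (ENSMUSG00000007594.10, chr8:70083457-70090862, plus strand) are separated by 2222 bases. Vcan (ENSMUSG00000021614.16, chr13:89655312-89742509, minus strand) and Hapln1 (ENSMUSG00000021613.9, chr13:89539796-89611652, plus strand) are separated by 43659 bases. Acan and Bcan also have link protein genes next to them, which are not members. Hapln3 lies 2 bases after Acan and Hapln2 lies 21519 bases after Bcan. Other positions are chr4:63959785-64047015 for Tnc (ENSMUSG00000028364.15), chr1:159523769-159931729 for Tnr (ENSMUSG00000015829.13), chr3:87987531-88000230 for Bcan (ENSMUSG00000004892.13), chr7:79053483-79115099 for Acan (ENSMUSG00000030607.7), chr6:22875502-23052916 for Ptprz1 (ENSMUSG00000068748.7) and chr9:110243783-110262576 for Cspg5 (ENSMUSG00000032482.9). Tnc overlaps 8030451A03Rik on the opposite strand, which had 2471 UMIs beside 45651 of Tnc, and Vcan overlaps Gm4117 on the opposite strand, with 1739 beside 77745. Tnr overlaps Gm37731 and Gm10530 on its own strand, with 2883.5 and 1850 UMIs beside 129936. Hapln1 overlaps Gm8546 on the opposite strand, with 21.3 UMIs beside 323, and Cspg5 overlaps Gm43622 there, with 44 beside 18328. The sources used here do not say whether counting used the strand, so levels of Tnc, Tnr, Vcan, Hapln1 and Cspg5 are uncertain to that extent.

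Tnc, which encodes tenascin-C, a glycoprotein of germinal zones and migratory paths, was carried by astroglia-like nuclei. Its WT level was 3511 ± 694 CPM (SD, n = 8), with the lowest library at 2615, the median at 3335 and the highest at 4494. Every WT library of the cycling progenitor-like class stood below that range, with 1158 ± 540 CPM and a highest value of 2153. With nuclei gated one by one the cycling value was 230 CPM. The oligodendrocyte lineage was far below, at 64.3 ± 46.7 CPM, so that the astroglia-like mean was 54.6 times higher, and higher in 8 of 8 WT libraries and 4 of 4 Het libraries. Pooled excitatory nuclei stood at 13.5 CPM and pooled inhibitory nuclei at 14.5 CPM. To compare shares of nuclei at equal depth, each nucleus was thinned to 800 UMIs, which every kept nucleus has. Tnc then had a UMI in 70.1% of astroglia-like nuclei (Wilson 95% interval 69.01 to 71.14), 23.4% of cycling progenitor-like nuclei, 2.87% of the oligodendrocyte lineage and 3.53% of microglia-like nuclei. Unthinned the astroglia-like share was 79.3%. Thinned and unthinned shares, here and below, pool the nuclei of WT and Het libraries. Intervals cover counting error alone and not the spread between animals. Over libraries the thinned astroglia-like share of Tnc was 73.1% ± 6.88 in WT and 68.7% ± 2.57 in Het.

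**Figure D1:**
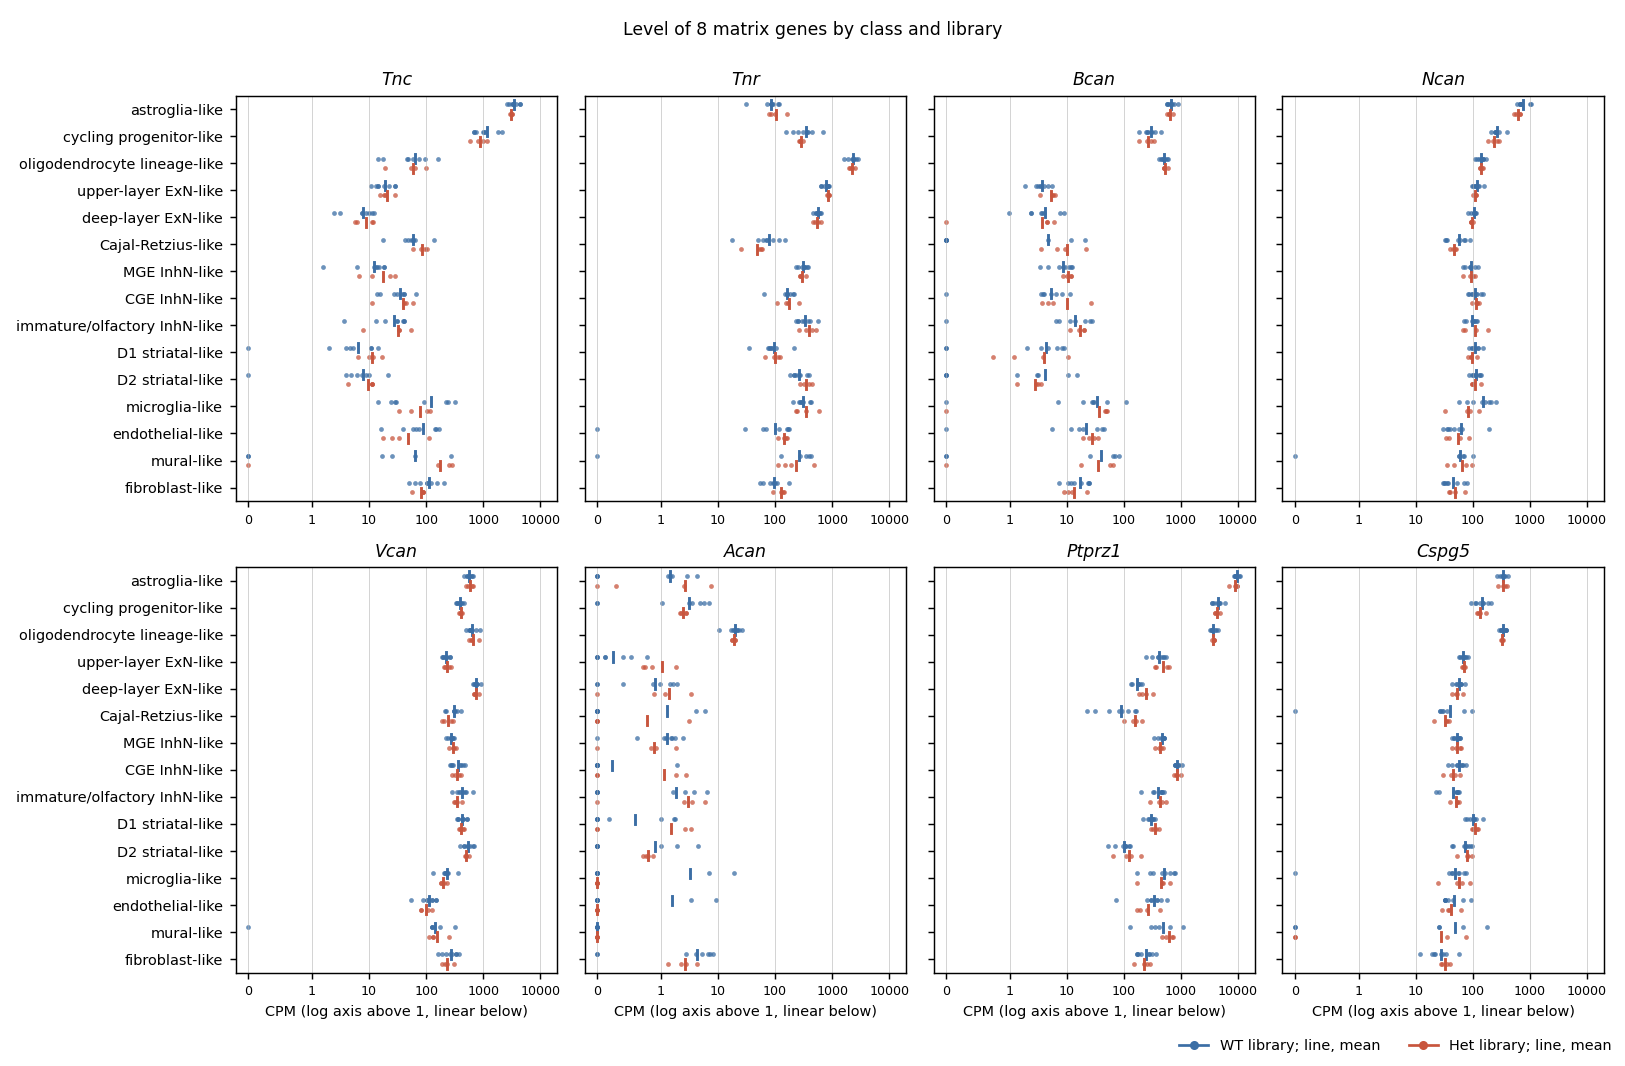
Each panel plots 1 gene, with the level in CPM on the x axis (logarithmic above 1, linear below) and 15 classes on the y axis; points are libraries (8 WT in blue, 4 Het in red, fewer where a class had under 10 nuclei) and short lines are group means. Tnc falls by a wide margin outside the astroglia-like and cycling progenitor-like rows and Bcan outside these and the oligodendrocyte lineage-like row, Tnr peaks in the oligodendrocyte lineage-like row, the deep-layer and both glial rows of Vcan overlap, and WT and Het points overlap in every row that was tested.

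Ptprz1, a receptor tyrosine phosphatase whose secreted form is phosphacan and which binds tenascins, contactin-1 and pleiotrophin, was found throughout the glia. Astroglia-like WT libraries ranged from 8595 to 11026 CPM with a median of 9201, a mean of 9444 ± 863 CPM. Cycling progenitor-like nuclei followed at 4391 ± 794 CPM and the oligodendrocyte lineage at 3682 ± 429 CPM, and the ranges of these 2 classes overlapped. After thinning, 96.8% of astroglia-like and 90.9% of oligodendrocyte lineage-like nuclei had a Ptprz1 UMI. Neurons carried less, and unequally. CGE InhN-like nuclei stood at 863 ± 87.1 CPM, upper-layer nuclei at 418 ± 104, deep-layer nuclei at 172 ± 24.9 and D2 striatal-like nuclei at 98.8 ± 26.1 CPM. The upper layer exceeded the deep layer in 8 of 8 WT and 4 of 4 Het libraries. Within the upper layer the clusters differed, with WT means of 795 CPM in cluster 8 and 845 in cluster 13 but 281 in cluster 2 and 159 in cluster 5.

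Bcan, which encodes brevican, a small lectican of the brain, was shared between both glial lineages. WT means were 671 ± 107 CPM in astroglia-like nuclei, 501 ± 60.4 in the oligodendrocyte lineage and 294 ± 77.9 in cycling progenitor-like nuclei. The astroglia-like value was the higher in 8 of 8 WT libraries and 3 of 4 Het libraries, but the ranges over libraries overlapped. Neurons were close to empty, with 3.86 CPM in excitatory and 7.41 CPM in inhibitory nuclei. At equal depth 37.02% of astroglia-like and 35.4% of oligodendrocyte lineage-like nuclei had a Bcan UMI, against 0.459% of upper-layer and 0.354% of deep-layer nuclei.

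Ncan, which encodes neurocan, the lectican most abundant in young brain, was highest in astroglia-like nuclei at 753 ± 167 CPM and was otherwise spread widely. WT libraries ran from 608 to 1048 CPM with a median of 678. Cycling progenitor-like nuclei held 269 ± 54.8 CPM, microglia-like nuclei 150 ± 69.2 and the oligodendrocyte lineage 139 ± 20.2. Upper- and deep-layer, striatal and InhN-like classes lay close together, from 118 ± 19.6 CPM in the upper layer to 92.6 ± 17.9 in MGE InhN-like nuclei, and each overlapped the next in the order. Cajal-Retzius-like nuclei, at 56.4 ± 21.0 CPM, and the few cholinergic-like nuclei, at 52.9 CPM, were lower.

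Cspg5, or neuroglycan C, a membrane proteoglycan with a growth factor-like domain, was even between both glial lineages, with 341 ± 41.2 CPM in the oligodendrocyte lineage and 337 ± 42.0 in astroglia-like nuclei. Each was the higher in 4 of 8 WT libraries. D1 striatal-like nuclei led the neurons at 102 ± 23.4 CPM, and the excitatory and inhibitory pools stood at 64.1 and 66.9 CPM.

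The neuronal levels were set beside those of astroglia markers in the same nuclei. Over 10 astroglia markers with at least 50 CPM in astroglia-like nuclei, the level in excitatory nuclei was a median of 1.25% of the astroglia-like level, with a range from 0.373% to 4.86%. In inhibitory nuclei the median was 1.32%, with a range from 0.438% to 4.39%. Slc4a4, which is on the list of 12 astroglia markers, was not looked at here. The highest marker below means the highest of these 10. Tnc in neurons lay at the lower end of the excitatory range, at 0.383%, and below the inhibitory range, at 0.412%. Bcan, at 0.576% and 1.10%, and Ptprz1, at 3.24% and 4.28%, lay within both ranges. Ncan, at 14.7% and 13.3%, and Cspg5, at 19.0% and 19.9%, lay above the highest marker in both pools. Free RNA was not measured, and its part in the neuronal values was not tested. By class, Ptprz1 lay above the highest of the 10 markers in MGE InhN-like nuclei (4.84% against 2.78%) and D1 striatal-like nuclei (3.14% against 2.02%), and below it in the other 7 neuronal classes, among them CGE InhN-like (9.13% against 11.97%) and upper-layer nuclei (4.43% against 5.26%).

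Tnr, which encodes tenascin-R, a partner of brevican and neurocan, had a different source. The oligodendrocyte lineage held 2288 ± 384 CPM in WT, with the lowest library at 1627, the median at 2326 and the highest at 2861. Upper-layer nuclei at 781 ± 101 CPM and deep-layer nuclei at 560 ± 55.8 CPM followed, and neither range over WT libraries overlapped the next above it. Astroglia-like nuclei held 85.7 ± 26.8 CPM, 0.0375 times the level of the oligodendrocyte lineage. Thinned to equal depth, 68.9% of oligodendrocyte lineage-like nuclei, 40.8% of upper-layer and 30.8% of deep-layer nuclei had a Tnr UMI, against 5.24% of astroglia-like nuclei. The 8 oligodendrocyte lineage markers summed to 228 CPM in upper-layer nuclei against 10257 CPM in the lineage itself. Microglia-like nuclei had 310 ± 77.9 CPM of Tnr and mural-like nuclei 264 ± 168. Endothelial-like and fibroblast-like nuclei had 98.2 and 96.2 CPM. The part of free RNA in the neuronal Tnr values was not tested. Striatal neurons were unequal, with 266 ± 73.0 CPM in D2 and 96.1 ± 52.6 CPM in D1 striatal-like nuclei, D2 being 2.77 times higher and higher in 8 of 8 WT and 4 of 4 Het libraries. Upper-layer clusters differed as well, with 1052 CPM of Tnr in cluster 2, 920 in cluster 8, 679 in cluster 5 and 358 in cluster 13.

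Vcan, which encodes versican, a large lectican of early matrix, was spread over neurons and glia. Deep-layer nuclei had 755 ± 75.8 CPM, with WT libraries from 659 to 910 and a median of 747. The oligodendrocyte lineage followed with 639 ± 118 CPM and astroglia-like nuclei with 567.9 ± 71.4, and these 3 ranges overlapped. Upper-layer nuclei held 223 ± 26.02 CPM, from 194 to 261, so the deep layer was 3.38 times higher, and higher in 8 of 8 WT libraries and 4 of 4 Het libraries. D2 striatal-like nuclei at 535 ± 104 CPM and D1 at 427 ± 69.9 lay between. The 131 cholinergic-like nuclei, with values from few libraries, had 791 ± 347 CPM. After thinning 42.6% of deep-layer, 37.6% of oligodendrocyte lineage-like, 32.7% of astroglia-like and 15.1% of upper-layer nuclei had a Vcan UMI.

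Aggrecan and both link proteins, unlike tenascin-R, were at trace levels or near the limit of detection. Acan, which encodes aggrecan, was highest in the oligodendrocyte lineage, at 19.8 ± 4.79 CPM in WT (10.7 to 26.4) and 18.9 ± 1.26 CPM in Het, on 115 UMIs over all libraries, and reached 4.28 CPM at most in any other class. With nuclei gated one by one it was 12.6 CPM in the oligodendrocyte lineage and 11.5 CPM in microglia-like nuclei, so its lead depended on how nuclei were classed. Hapln1 was highest in astroglia-like nuclei, at 9.19 ± 3.88 CPM in WT (2.14 to 12.8) on 110 UMIs, and stood at 0.212 CPM in the oligodendrocyte lineage, where 0.0843% of nuclei had a UMI. Hapln4 had 19.5 UMIs in all 12 libraries together. Its highest level over all nuclei of a library was 0.234 CPM, where a count of 0 allows from 0.124 to 0.308 CPM depending on depth, so no source could be named at this depth.

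Summed over the nuclei of each class, the UMIs gave each gene's origin. In such sums fewer cells of a type and less RNA per cell cannot be told apart. In WT libraries astroglia-like nuclei made up 7.38% of nuclei and 4.97% of UMIs but supplied 74.1% of Tnc, 54.3% of Bcan, 45.9% of Ptprz1 and 26.8% of Ncan UMIs. The oligodendrocyte lineage, with 3.43% of nuclei, supplied 30.1% of Acan, 21.4% of Bcan, 10.1% of Cspg5, 9.60% of Tnr and 9.55% of Ptprz1. The cycling progenitor-like class added 11.8% of both Tnc and Bcan and 10.4% of Ptprz1. Named excitatory nuclei supplied 24.8% of Tnr and 26.3% of Vcan. Clusters without a name supplied 55.1% and 37.4%, where they held 35.3% of nuclei and 41.6% of UMIs, so the cell type behind much of the Tnr and Vcan UMIs was not named here. In the WT mean they were also the largest single source of Hapln1 (33.3%), Cspg5 (32.2%), Acan (30.7%) and Ncan (30.4%). For Acan this was close to the 30.1% of the oligodendrocyte lineage. In Het libraries astroglia-like nuclei led for Hapln1 (38.7% against 19.0%) and the oligodendrocyte lineage for Acan (30.0% against 27.2%).

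**Figure D2:**
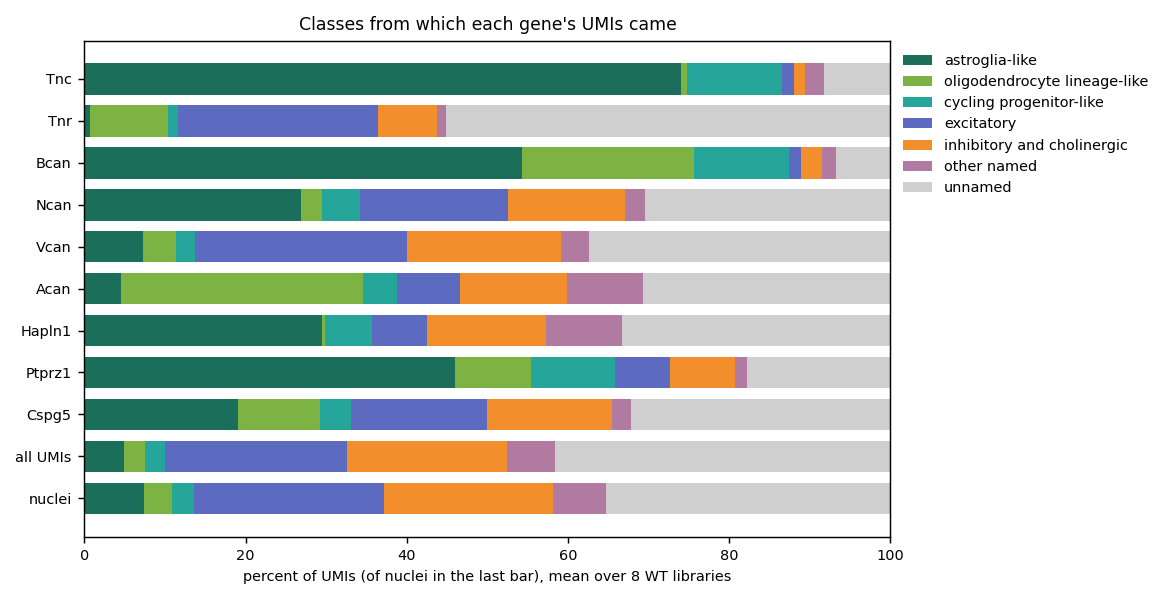
Stacked bars give, as the mean over 8 WT libraries, the percent of each gene's UMIs that came from each group of classes, with all UMIs and all nuclei in the last 2 bars; Hapln4 is left out for its 19.5 UMIs. Astroglia-like nuclei are 7.38% of the last bar but 74.1% of the Tnc bar and 54.3% of the Bcan bar, while clusters without a name are the largest segment for 6 of the 9 genes, from 30.4% for Ncan to 55.1% for Tnr.

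Astroglia-like nuclei came in 2 clusters that differed in matrix genes. These genes were left out of the clustering, but 8030451A03Rik, which overlaps Tnc, was not and was among the leading genes of cluster 7. Doublet scores drew on all genes, so the clusters are not fully separate from the matrix genes. Cluster 7, which expressed Fabp7, Lrig1 and Acsbg1 among its leading genes, had 4870 CPM of Tnc in WT against 1770 in cluster 12, which was led by Veph1, Hgf and Gli3. Tnc was higher in cluster 7 in 8 of 8 WT and 4 of 4 Het libraries, with a ratio of 2.75. Bcan had the widest ratio, 3.97 (997 against 251 CPM), followed by Ncan with 2.43 (1008 against 414) and Ptprz1 with 1.69 (11478 against 6800), each higher in all 12 libraries. Vcan ran the other way, at 465 CPM in cluster 7 and 683 in cluster 12, higher in cluster 12 in 7 of 8 WT and 4 of 4 Het libraries. Cspg5, at 315 and 349 CPM, was higher in cluster 12 in 6 of 8 WT and 4 of 4 Het libraries. Cycling nuclei likewise fell in 2 clusters. Cluster 16 had 1342 CPM of Tnc and 141 of Tnr, while cluster 37, of 202 nuclei (6 WT libraries) and with the oligodendrocyte precursor gene Pdgfra among its leading genes, had 10.4 CPM of Tnc, 1841 of Tnr and 530 of Bcan. Levels of the cycling class as a whole thus mix 2 unlike patterns.

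**Figure D3:**
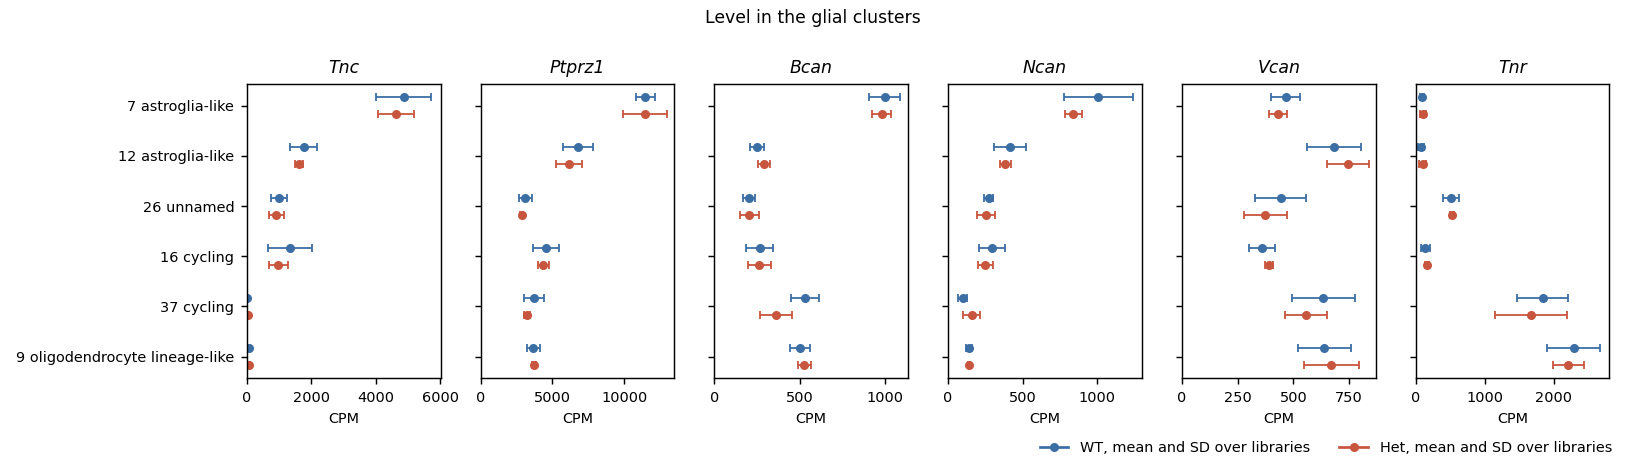
Points and bars give the mean and SD over libraries of the level in CPM (x axis, from 0) in 6 glial clusters (y axis), WT in blue and Het in red. Tnc, Ptprz1, Bcan and Ncan are highest in cluster 7, Vcan is higher in cluster 12 (683 against 465 CPM in WT), and Tnr is highest in clusters 9 and 37.

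Cluster 26 carried 11 of 12 raised astroglia markers but was left unnamed for its high doublet score alone, with 1.11% ± 0.385 of the nuclei of WT libraries and 1.17% ± 0.286 of those of Het libraries. It had 999 CPM of Tnc, 3118 of Ptprz1 and 510 of Tnr in WT.

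For each member the 3 genes most like it were found by Pearson's r of log2 (CPM + 1) between mean WT levels over 15 classes. For Tnc these were Aldh1l1 (0.96), Nrf1 and Gm6145, for Bcan the potassium channel gene Kcnj10 (0.98), Olig2 and Gm16168, for Ncan Phyhipl (0.95), Dtna and Fads1, and for Ptprz1 AW047730 (0.94), Hepacam and Gm26862. For Tnr they were Pcdh15 (0.83), Kcnmb4 and Vxn, for Vcan Gm37602 (0.84), Rragb and 2900022M07Rik, for Cspg5 Shc3 (0.90), Emid1 and Cdo1, for Acan Ankrd11 (0.89), C1ql1 and Amz1, and for Hapln1 Mtor (0.88), 2310014F06Rik and Htra1. No member was among the 3 genes most like another. The 15 points share libraries and depth, 7079 genes were compared, and these values carry no test.

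WT and Het libraries were then compared, to ask whether loss of 1 functional Myt1l allele alters the sources of the matrix. The frameshift transcript can still be counted, and Myt1l over all nuclei was not lower in Het, at 1567 ± 54.9 CPM in 4 libraries against 1419 ± 110 CPM in 8 WT libraries, so its level does not check the labels. In pooled excitatory nuclei Myt1l was higher in Het without overlap, at 1789 to 2117 CPM against 1340 to 1743 CPM, with a log2 difference of 0.27 ± 0.08 (edgeR, adjusted p = 0.287). This pool also differed in its makeup of upper- and deep-layer nuclei, whose part in the Myt1l value was not tested. Within 15 classes 90 pairs of gene and class passed the filter on low counts, and edgeR's quasi-likelihood test called 0 of them at a Benjamini-Hochberg adjusted p under 0.05 and a log2 difference of 0.2 or more. The background was as sparse, with 0% of genes called in 14 of the 15 classes, in the pooled classes and over all nuclei, and 0.0456% (3 of 6585) in D2 striatal-like nuclei. By member the number of classes tested was 15 for Tnr and Ptprz1, 14 for Ncan and Vcan, 13 for Tnc, 11 for Cspg5, 6 for Bcan, 1 for Acan and Hapln1 and 0 for Hapln4. The median log2 difference of the 90 pairs was -0.01, and the WT and Het libraries overlapped in every pair. Overlap was not counted over all genes, so it does not set these genes apart. At an unadjusted p under 0.05 there were 7 pairs, 4 higher and 3 lower in Het, or 7.78%, against 5.39% of all gene and class pairs.

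In the class that supplied most of it, Tnc stood at 3215, 2944, 3198 and 3039 CPM in Het 1 to Het 4, all inside the WT range of 2615 to 4494, with a log2 difference of -0.20 ± 0.13 (SE; edgeR, adjusted p = 0.863). Astroglia-like Ptprz1 stood at 8767, 9652, 7006 and 9566 CPM in the Het libraries, with Het 3 below and the others inside the WT range, and a log2 difference of -0.13 ± 0.11 (edgeR, adjusted p = 0.891). Bcan in the same class stood at 734, 624, 560 and 617 CPM in the Het libraries, with Het 3 just below the WT range of 567 to 886, and a log2 difference of -0.10 ± 0.12 (edgeR, adjusted p = 0.937). Astroglia-like Ncan was the lowest of these, with 683, 670, 527 and 569 CPM in the Het libraries, all below the WT mean of 753, and a log2 difference of -0.32 ± 0.14. Its unadjusted p was 0.0408 and its adjusted p 0.812 (edgeR), and 2 of the 4 Het libraries lay within the WT range, which began at 608. The log2 difference was -0.13 with the replicate block, which compares the 4 Het libraries with the same-numbered WT 1, WT 2, WT 3 and WT 6 alone. Ncan is lower in cluster 12 than in cluster 7. Cluster 7 made up 4.07% ± 1.00 of WT and 3.74% ± 0.857 of Het nuclei and cluster 12 made up 3.31% ± 1.15 and 3.72% ± 0.928, with overlapping ranges, and the part of this mixture in the Ncan value was not tested. In the oligodendrocyte lineage Tnr stood at 2510, 2080, 1989 and 2266 CPM in the Het libraries, amid the WT range, with a log2 difference of -0.06 ± 0.11 (edgeR, adjusted p = 1.00). Vcan in the deep layer differed by -0.05 ± 0.09 on the log2 scale (edgeR, adjusted p = 0.938) and Cspg5 in the oligodendrocyte lineage by -0.05 ± 0.10 (edgeR, adjusted p = 1.00).

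**Figure D4:**
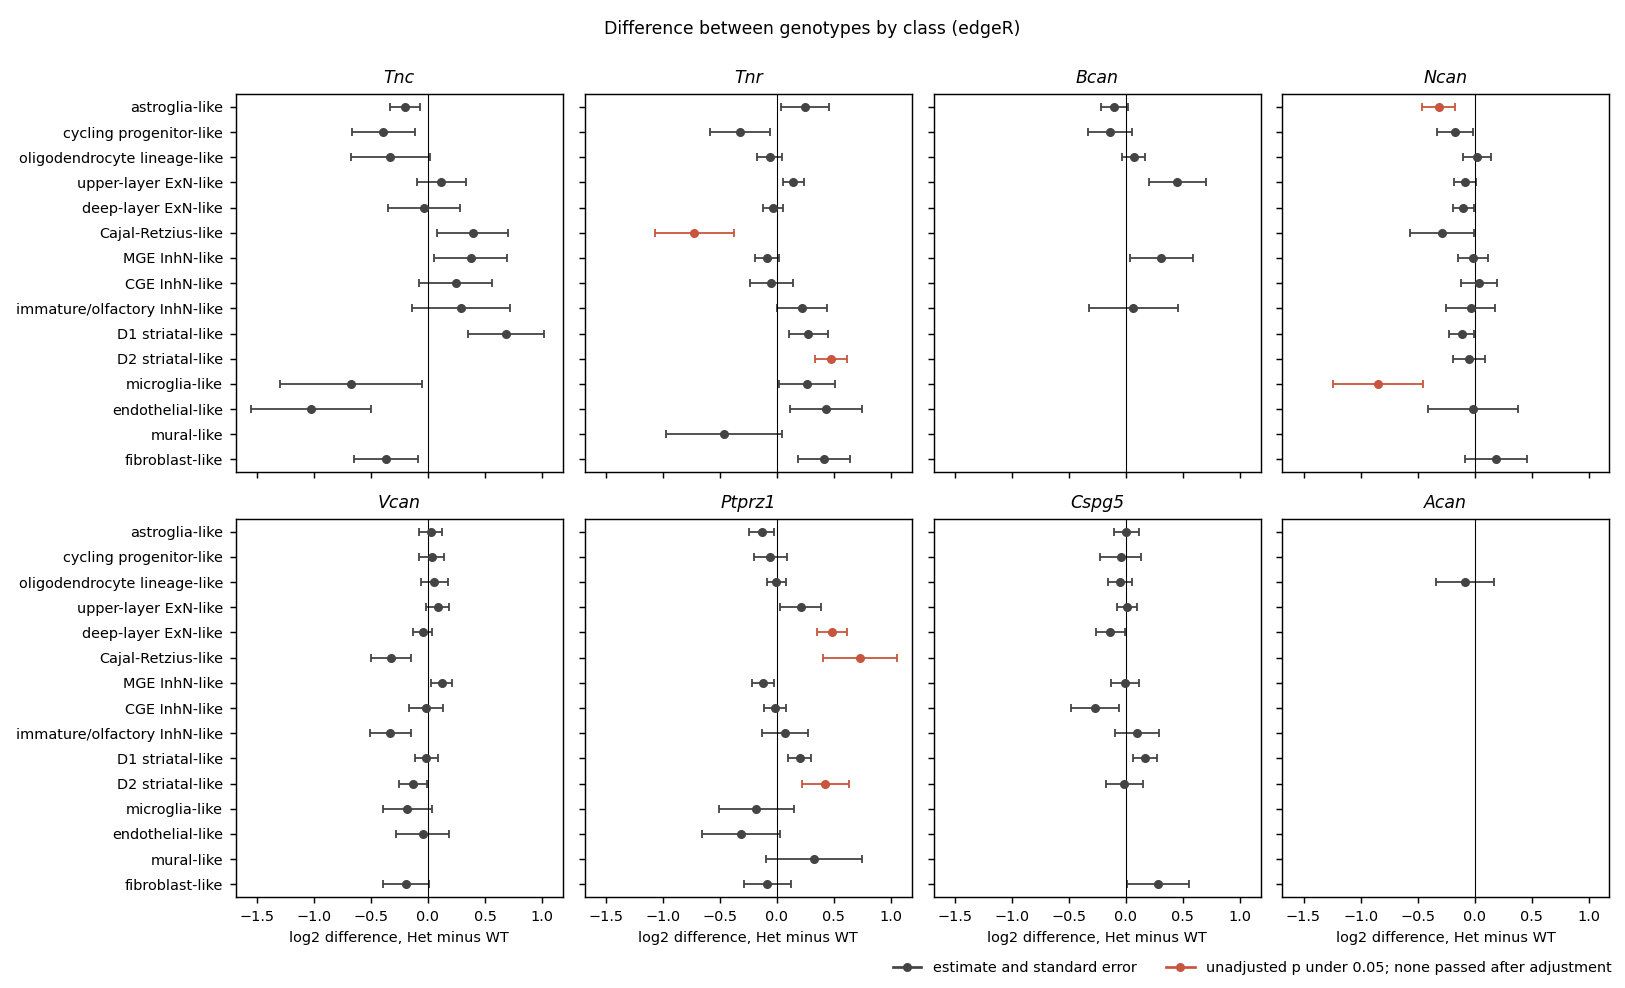
Points are log2 differences (Het minus WT, x axis) with standard errors from edgeR for each class (y axis) in which the gene passed the filter on low counts; red marks an unadjusted p under 0.05. Red points number 7 over the panels, in the Tnr, Ncan and Ptprz1 panels, and those of deep-layer Ptprz1 and D2 striatal-like Tnr both sit at 0.48.

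The remaining pairs at an unadjusted p under 0.05 were neuronal or in small classes. Deep-layer Ptprz1 was 172 ± 24.9 CPM in WT, from 135 to 207 with a median of 176, and 210, 329, 245 and 183 CPM in Het 1 to Het 4. All 4 Het libraries were above the WT mean and Het 4 lay within the WT range, with a log2 difference of 0.48 ± 0.13 (edgeR, adjusted p = 0.456). The 12 astroglia markers, all found, summed to 199 to 247 CPM in WT and 214 to 289 CPM in Het deep-layer nuclei, and their part in the result was not tested. Tnr in D2 striatal-like nuclei was 266 ± 73.0 CPM in WT, from 185 to 387 with a median of 248, and 269, 448, 318 and 391 CPM in Het, with a log2 difference of 0.48 ± 0.14 (edgeR, adjusted p = 0.415). Of the 8 oligodendrocyte lineage markers 7 were found in D2 striatal-like nuclei, with a sum from 229 to 498 CPM in WT and from 402 to 505 in Het, and their part was likewise not tested. With 1 library left out, WT 4 with its few D2 striatal-like nuclei included, the log2 difference of D2 striatal-like Tnr ranged from 0.33 to 0.61, that of deep-layer Ptprz1 from 0.30 to 0.61 and that of D2 striatal-like Ptprz1 from 0.14 to 0.63. Of the 4 Het libraries 3 were above the WT mean for D2 striatal-like Ptprz1. D2 striatal-like Ptprz1 (log2 difference 0.42 ± 0.20), Cajal-Retzius-like Ptprz1 (0.73 ± 0.32) and Tnr (-0.72 ± 0.34) and microglia-like Ncan (-0.85 ± 0.39) had edgeR adjusted p-values of 0.898, 0.966, 0.966 and 0.670. Over 22 alternatives the log2 difference of Cajal-Retzius-like Tnr ranged from -0.84 to -0.35. The Ncan value of microglia-like nuclei rests on 131 UMIs, and the astroglia markers summed to 574 CPM there in WT and 663 CPM in Het.

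Vcan differed more in pooled excitatory nuclei than in either of their parts. In pooled excitatory nuclei Vcan was 461 ± 98.3 CPM in WT and 351 ± 106 CPM in Het, with 271, 286, 346 and 503 CPM in Het 1 to Het 4, a log2 difference of -0.41 ± 0.19 (edgeR, unadjusted p = 0.0471, adjusted p = 0.437). It ranged from -0.64 without Het 4 to -0.31 without Het 1. Its 2 parts did not show it, with a log2 difference of 0.08 ± 0.10 in upper-layer and -0.05 ± 0.09 in deep-layer nuclei. Upper-layer nuclei, in which Vcan is low, made up 60.2% ± 15.1 of the pool in WT (34.6% to 81.3%) and 88.3%, 87.9%, 84.7% and 52.6% in Het 1 to Het 4. Weighted to the mean WT makeup, excitatory Vcan was 457 ± 43.2 CPM in WT and 456 ± 36.1 CPM in Het. This weighting only recombines the levels of the 2 named classes, and the part of makeup in the pooled difference was not tested. Clusters without a name, which held 35.3% of WT and 28.5% of Het nuclei, are not in it. Over all nuclei Vcan was the only 1 of 9 members tested at an unadjusted p under 0.05, against 10.1% of all genes, with a log2 difference of -0.17 ± 0.08 (edgeR, adjusted p = 0.486). The same weighting left pooled excitatory Ptprz1 at 310 ± 67.5 CPM in WT and 373 ± 99.4 CPM in Het, where the unweighted log2 difference was 0.47 ± 0.20 (edgeR, adjusted p = 0.393), with 0.31 without Het 3, 0.63 without Het 4 and 0.25 with the replicate block. Other pooled values at an unadjusted p under 0.05 were Tnr in excitatory nuclei (0.19 ± 0.07, edgeR adjusted p = 0.357), which weighted to the WT makeup stood at 683 ± 46.5 CPM in WT and 723 ± 57.0 CPM in Het, and Cspg5 in inhibitory nuclei (0.21 ± 0.08, edgeR adjusted p = 0.558). Over 23 alternatives the log2 difference ranged from 0.07 to 0.22 for this Tnr value and from 0.17 to 0.27 for this Cspg5 value. In clusters without a name Bcan was 9.43 ± 3.07 CPM in WT and 13.4, 15.5, 16.7 and 12.7 CPM in Het 1 to Het 4, 4 of 4 above the WT mean, with a log2 difference of 0.58 ± 0.20 (edgeR, unadjusted p = 0.00932, adjusted p = 0.237). The Bcan difference was 0.25 with nuclei gated one by one and 0.95 with cluster 26 moved to the astroglia-like class. Within the upper layer the largest cluster was cluster 2 in 4 of 8 WT and 3 of 4 Het libraries, so even class levels compare unequal mixtures of clusters.

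**Figure D5:**
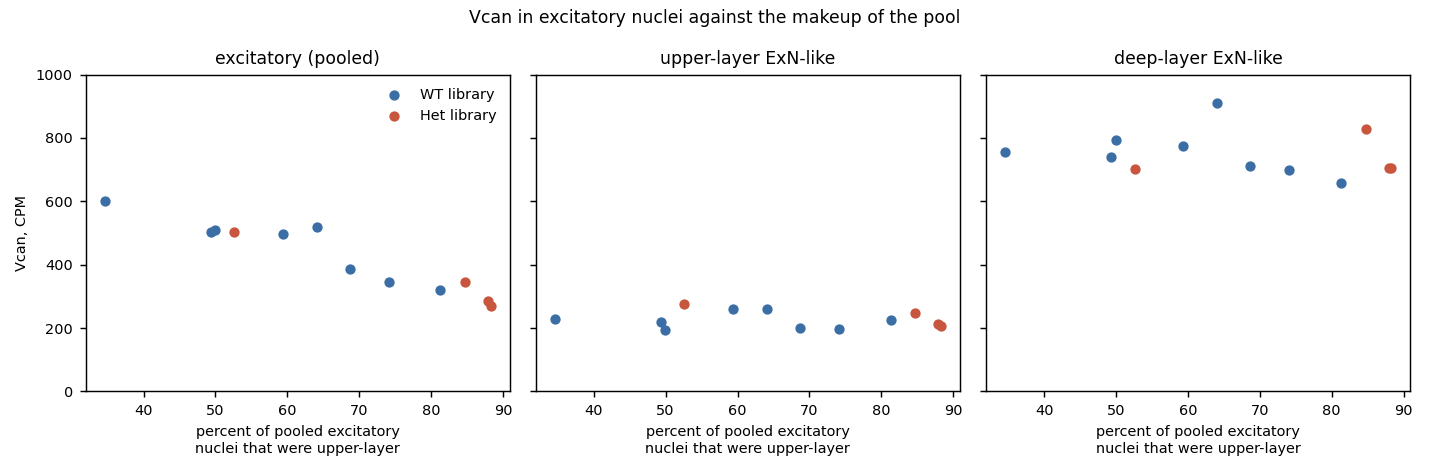
Each point is a library (8 WT, 4 Het), with the percent of pooled excitatory nuclei that were upper-layer on the x axis and Vcan in CPM on the y axis, for the pool and for each of its parts. In the pool the level falls from 602 CPM at 34.6% to 271 CPM at 88.3% upper-layer nuclei, while within the upper-layer and deep-layer classes the ranges of WT and Het points overlap.

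The glial share of each gene's UMIs, taken over the astroglia-like and oligodendrocyte lineage-like classes, was compared between genotypes. For Tnc it was 74.8% ± 6.41 in 8 WT libraries and 74.9% ± 3.39 in 4 Het libraries, with p = 0.988 by a two-sided exact permutation test, and 75.6% and 75.7% for Bcan (exact permutation p = 0.986). For Ptprz1 it was 55.5% ± 6.47 and 53.4% ± 5.04 (exact permutation p = 0.6), for Ncan 29.5% and 28.2% (p = 0.691, same exact test) and for Cspg5 29.2% and 30.3% (p = 0.590, same exact test). Tnr had 10.3% ± 3.41 and 11.9% ± 3.76 (exact permutation p = 0.465), Acan 34.6% and 34.9% (exact p = 0.978) and Hapln1 29.9% and 42.3% (exact permutation p = 0.192). The Hapln1 value of Het 4 was 65.4%, while the other Het libraries had 28.1%, 38.2% and 37.5%. The largest move relative to its spread was that of Vcan, from 11.4% ± 2.60 to 14.3% ± 2.62 (exact permutation p = 0.107, adjusted p = 0.864 over 9 genes). With nuclei gated one by one, which leaves many without a class, the WT glial share was 2.15% for Tnr, 6.74% for Vcan and 8.98% for Acan. Under that gating the share was lower in Het than in WT by values that also missed the threshold, at 45.8% and 53.8% for Bcan (exact permutation p = 0.131), 63.2% and 68.3% for Tnc (exact permutation p = 0.311) and 37.6% and 43.4% for Ptprz1 (exact permutation p = 0.184). The 495 ways of splitting the libraries allow a p as small as 0.00202. The glial classes themselves made up similar shares of nuclei, 7.38% ± 1.51 and 7.47% ± 0.650 for astroglia-like (exact permutation p = 0.933) and 3.43% ± 1.01 and 4.01% ± 1.41 for oligodendrocyte lineage-like nuclei (exact permutation p = 0.424).

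The partners of these genes, a list of 44 chosen for their roles, gave the wider pathway. Among enzymes that build chondroitin sulfate, Xylt1, which starts the chain, was highest in the oligodendrocyte lineage (1666 ± 231 CPM in WT), as was the sulfotransferase Chst11 (579 ± 110 CPM). The polymerizing enzyme Chsy3 led in deep-layer nuclei (1258 ± 58.9 CPM) and the initiating enzyme Csgalnact1 in astroglia-like nuclei (241 ± 42.3 CPM). The hyaluronan synthase Has2 was low throughout, at most 15.3 ± 11.7 CPM. Of the receptors, Cntn1, or contactin-1, peaked in the oligodendrocyte lineage (1334 ± 117 CPM), and Cd44, a hyaluronan receptor, in microglia-like nuclei (53.4 ± 12.54 CPM). The proteoglycan gene Cspg4 peaked in mural-like nuclei (384 ± 107 CPM) before the oligodendrocyte lineage (260 ± 54.7 CPM). Adamts9, a protease that cleaves versican, led in fibroblast-like nuclei (496 ± 218 CPM), while Adamts20 led in the upper layer (152 ± 36.4 CPM). Ptn, which encodes the Ptprz1 ligand pleiotrophin, was high in astroglia-like nuclei, at 2290 ± 508 CPM, and in fibroblast-like nuclei, at 2101 ± 482 CPM.

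Between genotypes 254 pairs of partner gene and class were tested and edgeR called 0, with a lowest adjusted p of 0.252. Calls appeared under 3 alternatives, in which calls over all genes rose as well, from 3 over the single, pooled and unnamed classes together to 819 without the filter, 198 with the replicate block and 641 without Het 4. Without the filter on low counts edgeR called Ptn in deep-layer, MGE InhN-like, D2 striatal-like and pooled inhibitory nuclei, Ust in D1 striatal-like and microglia-like nuclei and Adamts9 in astroglia-like nuclei, with adjusted p from 0.00148 to 0.0244. With the replicate block it called Ptn in MGE InhN-like nuclei (log2 difference 0.58, adjusted p = 0.0474), and without Het 4 it called Chst11 (0.60, adjusted p = 0.0337) and Chsy3 (-0.66, adjusted p = 0.0480) in pooled excitatory nuclei, where it called 334 genes. The 3 Het libraries left had 84.7% to 88.3% upper-layer nuclei in that pool against a WT mean of 60.2%. With all libraries the log2 difference of Chsy3 was 0.20 ± 0.15 in upper-layer and -0.13 ± 0.07 in deep-layer nuclei, and that of Chst11 was 0.21 ± 0.11 and 0.09 ± 0.20. At an unadjusted p under 0.05 there were 22 pairs, 12 higher and 10 lower in Het, or 8.66% against the same 5.39%. Ptn recurred among them in neurons. In D2 striatal-like nuclei it was 101 ± 25.2 CPM in WT and 170 ± 61.6 CPM in Het, a log2 difference of 0.62 ± 0.16 (edgeR, adjusted p = 0.263). Log2 differences of 0.50 ± 0.20 in deep-layer, 0.41 ± 0.15 in MGE InhN-like, 0.56 ± 0.24 in CGE InhN-like and 0.31 ± 0.10 in D1 striatal-like nuclei were also above 0 at an unadjusted p under 0.05, with edgeR adjusted p from 0.487 to 0.962. Upper-layer nuclei, at 800 CPM in WT, and immature/olfactory InhN-like nuclei, at 163 CPM, had log2 differences of 0.07 and 0.14 that missed that threshold, and so did Cajal-Retzius-like nuclei, at 0.50 ± 0.27 (edgeR, adjusted p = 0.966). The 12 astroglia markers, all found, were higher on average in Het in 4 of these 5 classes, and their part in these differences was not tested. Their mean sum went from 219 CPM in WT to 273 CPM in Het in D2 striatal-like nuclei (165 to 290 and 241 to 345 over libraries), from 132 to 171 CPM in MGE InhN-like nuclei and from 255 to 312 CPM in CGE InhN-like nuclei. It was 226 and 241 CPM in deep-layer nuclei and 314 and 276 CPM in D1 striatal-like nuclei. In astroglia-like nuclei Ptn differed by -0.20 ± 0.14 on the log2 scale (edgeR, adjusted p = 0.890). Adamts9 in astroglia-like nuclei was 64.0 ± 15.6 CPM in WT and 97.1 ± 28.1 CPM in Het (log2 difference 0.56 ± 0.18, edgeR adjusted p = 0.758).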

How the data were processed

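Nuclei of the forebrain of 12 mice were barcoded by split pooling. Each animal had its own first-round barcodes, and nuclei of all animals were then pooled and processed together. A library here is the set of nuclei of 1 animal, separated by those barcodes. The authors mapped reads to mm10 and counted UMIs with the ScaleRna workflow, called nuclei against ambient RNA, and deposited expected counts per gene and nucleus, in which 6.58% to 6.88% of the entries of a library were fractions. The submitters' processing notes name Seurat 4.3.0. The annotation release, the use of strand and the way fractions arose could not be found in the sources used here. The design assumed whole counts, so sums over nuclei were rounded to whole numbers before testing.

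Of 126684 barcodes, 98111 met the limits stated by the study, which are from 300 to 3000 genes and 800 to 6000 UMIs, no more than 1% mitochondrial UMIs and log genes over log UMIs of at least 0.9. Each barcode received a doublet score, the fraction of its neighbours that were simulated doublets, and the highest 5% of each library were removed. This left 94676 nuclei, with 9742750 to 24248500 UMIs a library in kept nuclei. Nuclei were clustered with scanpy 1.11.5 (3000 variable genes without the members and their partners, 50 components, resolution 1.5), which gave 41 clusters, 25 of them named in 17 classes from marker lists. Naming limits (a median doublet score of at most 0.6, a marker score lead of 0.2 or 0.5) were chosen once the clusters were known. No step subtracted free RNA.

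Counts were summed per library and class (at least 10 nuclei, at least 3 libraries of a genotype) and tested with edgeR 4.0.16 (TMM, filterByExpr, quasi-likelihood test, genotype as the only term), Benjamini-Hochberg adjusted over all genes of the class. In simulated astroglia-like counts this test recovered 89 of 100 genes changed by 1 on the log2 scale and 28 of 100 changed by 0.5, with 8 false calls. Shares were compared by the exact permutation test, ranked by the absolute difference. Alternatives were DESeq2 1.42.0, other size factors, no filter, each library left out, males only, sex as a covariate, a replicate block, doublets kept, all barcodes, other resolutions and nuclei gated one by one. Libraries are separate animals, and 34 pairs within groups all differed beyond sampling noise. The members, partners and markers were chosen with earlier results of these data known. Named genes are the members, the partners, the 3 genes most like each member and leading genes of glial clusters. Promoter sequences come from RefSeq (GRCm38.p6), in which Hapln4 and Cspg5 were not matched.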

Additional observations from a re-analysis of the deposited data

Results flagged for a closer look

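Within a genotype, 110 sets of library values (members by class) were searched for a highest or lowest library set apart from the rest (Dixon's criterion at the 95% level), and 6 stood apart, or 5.45%, where chance gives about 5%. Bcan in oligodendrocyte lineage-like nuclei was 583 CPM in Het 3 and 498 to 511 in the other Het libraries. Ncan in cycling progenitor-like nuclei was 393 CPM in WT 4 and 208 to 288 in the other WT libraries. Vcan in pooled inhibitory nuclei was 267 CPM in WT 4 against 352 to 421 in the rest of its genotype, and 339 CPM in Het 1 against 396 to 405. Ptprz1 in pooled inhibitory nuclei was 427 CPM in Het 3 and 362 to 371 in the other Het libraries. Tnc over all nuclei was 354 CPM in WT 3, while the other WT libraries ranged from 192 to 220.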

How the results depend on the processing

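The count of 0 members called within classes held under all but 2 of 23 alternatives. It was 2 without a filter on low counts, where all genes called over the single, pooled and unnamed classes together rose from 3 to 819 (deep-layer Ptprz1, edgeR adjusted p = 0.0026, and D2 striatal-like Tnr, edgeR adjusted p = 0.0474), and ranged from 0 to 1 with a library left out, the 1 being D2 striatal-like Tnr without WT 1 (edgeR adjusted p = 0.0480). Over all nuclei 0 members were called under 20 alternatives. All genes called there numbered 49 with DESeq2, 52 without Het 4, 3 in males alone and at most 1 otherwise. Over the single, pooled and unnamed classes together, all genes called numbered 89 with DESeq2, 390 in males alone, 84 with nuclei gated one by one and 641 without Het 4. The titles number animals alike in both genotypes. The deviations of same-numbered libraries correlated from -0.194 to 0.505, and the same-numbered WT 6 was the WT library most like Het 4. So few correlations cannot settle whether the numbers pair animals. With the replicate block 0 members and 198 genes were called. That block sets Het 1, Het 2, Het 3 and Het 4 against WT 1, WT 2, WT 3 and WT 6 alone. The other WT libraries share no number and sex with a Het library.

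Levels with nuclei gated one by one were 3061 CPM for Tnr, 12.6 for Acan and 399 for Cspg5 in the oligodendrocyte lineage, 649 for Vcan in the deep layer (below the 676 of the oligodendrocyte lineage, which then led) and 8549 for Ptprz1 in astroglia-like nuclei. Tnc of cycling progenitor-like nuclei was then 230 CPM. The same gating, which placed 49.7% of nuclei in a class, lowered the glial share of UMIs in WT to 2.15% for Tnr, 8.98% for Acan, 6.74% for Vcan, 18.003% for Cspg5 and 53.8% for Bcan. Astroglia-like Ptprz1 was 8173 CPM with cluster 26 added, an alternative chosen after seeing the data. The Het minus WT difference in astroglia-like share, 0.0852 percentage points, ranged from -0.173 to 0.389 with a library left out and was below 0 without WT 4 (-0.147), WT 5 (-0.173), WT 6 (-0.168) or Het 4 (-0.122). That of the oligodendrocyte lineage, 0.578 points, ranged from 0.172 without Het 1 to 1.25 without Het 4 (exact permutation adjusted p = 0.170). The glial shares of UMIs gave 0 members below an adjusted p of 0.05 under 17 alternatives. Depth limits Hapln4, Hapln1 and Acan, and simulated recovery was 28.0% at a log2 size of 0.5, so that small differences in any class can be missed.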
